A study of Homo sapiens with 6 samples.

Results

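The mRNAs of 10 enzymes that make purine and pyrimidine nucleotides were followed in HEK293T cells with and without the mTOR inhibitor PP242, at the level of mRNA abundance and of binding by LARP1, an RNA-binding protein downstream of mTOR. The enzymes were chosen by gene name from the mRNA-seq table: CAD, DHODH and UMPS of the pyrimidine pathway, and PPAT, GART, PFAS, PAICS, ADSL, ATIC and IMPDH2 of the purine pathway. All 10 genes were found, with 16 of the 38438 transcripts in the table. Another 2 transcripts, which the table leaves unnamed, belong to UMPS by their RefSeq accession, which marks them as noncoding.

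HEK293T is a human embryonic kidney line that carries the SV40 large T antigen. Growing cells received no inhibitor, and mTOR-inactive cells received 2.5 µM PP242, which blocks the kinase activity of mTOR. For mRNA-seq there were 2 libraries per condition, labeled as replicates and prepared without a thiolated nucleoside. For PAR-CLIP, in which RNA labeled with 4-thiouridine (100 µM, 14 hr) is crosslinked to protein with ultraviolet light (150 mJ/cm2), endogenous LARP1 was precipitated and there was 1 library per condition. The duration of PP242 treatment is not given in the sources used here. The labels do not say whether replicate libraries came from separate cultures, so p-values measure only the spread between these libraries. All samples are a single transformed cell line, and total mRNA was measured, not its translation.

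Purine synthesis builds the ring stepwise on activated ribose, from PRPP to IMP, and IMP is then turned into AMP or GMP. Pyrimidine synthesis first makes the ring, as orotate, and then attaches the ribose to give UMP. Active mTOR is known to promote both pathways, in part by phosphorylation of CAD and in part through transcription factors that raise mRNAs of the pathways. LARP1 is known for binding mRNAs with a 5’ terminal oligopyrimidine (TOP) sequence, a cytidine at the cap followed by a run of pyrimidines, which most mRNAs of ribosomal proteins carry. In these PAR-CLIP data, however, the authors found few 5’UTR sites at the TOP sequence itself and most at the end next to the coding sequence. The authors propose that in cells LARP1 is not a true TOP-binding protein.

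None of the enzymes had an annotated start with a TOP sequence. The first 15 bases of the MANE Select transcript (the reference transcript of a gene) were read from GRCh37, and a start was counted as TOP-like when it opened with C and at least 5 pyrimidines in a row. A TOP-like start was present in 0 of 10 enzymes, in 5.76% of 9748 expressed genes and in 75.3% of 77 ribosomal protein genes. At that general share, 0 of 10 does not set the enzymes apart from other genes. IMPDH2 was nearest, with C and a total of 4 pyrimidines before the first purine, UMPS had 1 pyrimidine, and the other 8 enzymes began with a purine. The starts of IMPDH2, CAD, PPAT and UMPS are shown 5′ to 3′ beside those of RPS6 and EEF1A1, which were chosen as examples of TOP mRNAs, with the leading pyrimidines in capitals.
IMPDH2: CTCTgcggcgcggtc
CAD: agtctctgctgctgc
PPAT: agtagctggggccac
UMPS: Caaacaggcagcgcg
RPS6: CTCTTTTCCgtggcg
EEF1A1: CTTTTTCgcaacggg
These windows lie in GRCh37 at chr3:49066817-49066831 (minus strand), chr2:27440237-27440251 (plus), chr4:57301767-57301781 (minus), chr3:124449299-124449313 (plus), chr9:19380220-19380234 (minus) and chr6:74230741-74230755 (minus), each at the 5’ end of exon 1. Annotated starts can differ from the starts used in these cells, which these data do not map. The median 5’UTR of the 10 enzymes was 71.5 nt long, against 137 nt in expressed genes and 41 nt in ribosomal protein genes. Pyrimidines made up a median of 52.5% of the enzyme 5’UTRs, against 48.7% in expressed genes and 57.9% in ribosomal protein genes, with a range from 28.6% in DHODH to 65.6% in CAD.

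In GRCh37 (GENCODE annotation) PPAT lies at chr4:57259528-57301781 on the minus strand and PAICS at chr4:57301907-57330744 on the plus strand. These neighbors are transcribed away from each other, with 644 bases between their MANE starts. CAD lies at chr2:27440237-27466811 and ATIC at chr2:216176679-216214496. IMPDH2 lies at chr3:49061758-49066880 and UMPS at chr3:124449280-124468120. The remaining genes are DHODH at chr16:72042487-72061563, PFAS at chr17:8150936-8173809, GART at chr21:34876238-34915797 and ADSL at chr22:40742465-40786467. The MANE transcripts hold between 6 exons, in UMPS, and 44 exons, in CAD.

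To compare levels between enzymes, RPKM was summed over the transcripts of a gene, since the authors divided reads that matched several transcripts evenly among them. RPKM is a read number scaled to the length of the transcript and to the mapped reads of the library. On this scale the 10 enzymes spanned a 34.3-fold range, and 9 of them lay above the median of 10.9 RPKM among 11417 genes with an mRNA of at least 1 RPKM. UMPS lay above it only with its unnamed noncoding transcripts added, since its named transcript averaged 4.37 RPKM.

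IMPDH2, which commits IMP to GMP and is the rate-limiting enzyme of guanine nucleotide synthesis, was the most abundant, with 214 and 211 RPKM in growing cells and 219 and 214 RPKM in mTOR-inactive cells. PAICS, a purine enzyme with carboxylase and ligase activities, followed at 187 to 193 RPKM, and its range did not reach that of IMPDH2. ADSL, which releases fumarate at separate steps of purine synthesis, ranged from 110 to 115 RPKM, and ATIC, which carries out the last steps to IMP, from 89.3 to 93.7 RPKM. GART, a trifunctional purine enzyme, lay between 69.6 and 71.9 RPKM. PPAT, the committed and rate-limiting step of purine synthesis, was lower than the enzymes just named, at 32.2 to 34.5 RPKM.

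**Figure D1:**
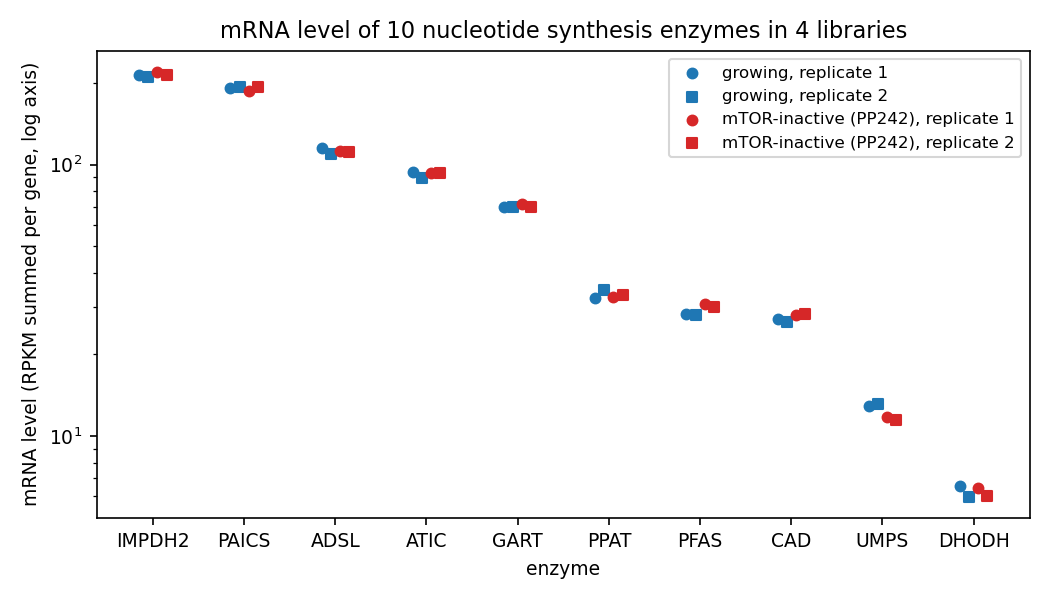
mRNA level of the 10 enzymes, as RPKM summed over the transcripts of each gene on a log axis, with 1 point per library (blue, growing; red, mTOR-inactive; circle, replicate 1; square, replicate 2). The means run from 6.25 RPKM in DHODH to 215 RPKM in IMPDH2, and the 4 libraries of an enzyme lie close together.

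PFAS, the glutamine-using amidotransferase of purine synthesis, and CAD, the trifunctional protein that starts pyrimidine synthesis, were the only neighbors in this order whose library ranges overlapped (27.9 to 30.8 and 26.3 to 28.3 RPKM). UMPS, which makes UMP from orotate, lay between 11.5 and 13.1 RPKM. DHODH, the mitochondrial enzyme that makes orotate, was the lowest, between 5.99 and 6.56 RPKM. The 3 pyrimidine enzymes thus ranked 8 to 10 of the 10, below all 7 purine enzymes. The order rests on how isoforms are handled. By the most abundant transcript alone, ATIC moved from rank 4 to rank 2, ahead of PAICS and ADSL. GART moved from rank 5 to rank 8, behind CAD at rank 7, because its reads are spread over 4 transcripts of 16.5 to 19.1 RPKM, and UMPS changed places with DHODH.

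Some of these levels may hold reads of other annotated genes. Of the MANE transcripts, 1631 of the 1651 bases of the IMPDH2 transcript and 1336 of the 4359 bases of the ADSL transcript also belong to exons of another protein-coding gene model on the same strand. PPAT shares 121 bases with a noncoding RNA on the opposite strand, and whether reads were counted by strand is not stated. PAICS has 7 and PPAT 2 annotated pseudogenes by symbol, of which 0 are named in the mRNA-seq table, and sharing of reads with them was not tested.

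The libraries were close in depth, which the ratios of the lowest values put at 1.04 to 1.06 times that of growing replicate 1. RPKM values do not give read numbers, so no counting error is given. Of the markers of the HEK293 line, NEFM (15.7 to 18.2 RPKM) and NEFL (6.79 to 7.61 RPKM) were present, LHX1 was at 0.66 to 1.04 RPKM and PAX2 at 0.116 to 0.136 RPKM. The liver marker ALB and the blood marker PTPRC did not exceed 0.0402 RPKM.

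The comparison of mTOR-inactive with growing cells asks whether mTOR inactivation changed the amount of these mRNAs. With limma on log2(RPKM + 1) over 21014 transcripts of at least 1 RPKM on average, p-values adjusted after Benjamini and Hochberg and a call below 0.05, 0 of the 16 enzyme transcripts were called. The background was 3.48% of all transcripts called higher and 6.45% called lower after PP242 (9.93% in either direction), so a count of 0 lies near it. At an unadjusted p under 0.05 there were 3 of the 10 enzymes by their most abundant transcript, PFAS, CAD and UMPS, against 27.9% of all transcripts. By the same transcripts, both mTOR-inactive libraries lay above both growing ones in 3 of the 10 enzymes and below them in 1. Over all transcripts tested these shares were 28.5% and 30%. The median log2 change of the 10 enzymes was −0.01, that of all transcripts tested 0.00, and all 10 95% intervals lay between −0.22 and 0.18. On this scale the interval bound farthest from 0, that of UMPS, corresponds to a 1.16-fold difference. That is a fold of RPKM + 1, which understates the fold of the UMPS transcript itself, at a mean of 4.37 RPKM.

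UMPS had the lowest log2 change. Its most abundant transcript was at 4.61 and 4.64 RPKM in growing cells and at 4.15 and 4.09 RPKM in mTOR-inactive cells, a difference of −10.9% between the means. Both mTOR-inactive libraries lay below both growing libraries, which held for 30% of all transcripts tested. The log2 change was −0.14 (95% interval −0.22 to −0.06, limma adjusted p = 0.0544). The 2 UMPS transcripts without a name in the table gave log2 changes of −0.12 and −0.13, and the reads that match several of the 3 transcripts are divided among them. When RPKM was summed over the 3 UMPS transcripts before the fit, the levels were 12.9 and 13.1 RPKM against 11.8 and 11.5 RPKM, and the decrease passed the test (log2 change −0.15, limma adjusted p = 0.0315), as did 9.37% of all genes in that direction in that fit. The other 9 enzymes did not pass there.

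PFAS had the highest log2 change, with 28.2 and 27.9 RPKM in growing cells and 30.8 and 29.9 RPKM in mTOR-inactive cells, or 8.15% more on average. Its libraries did not overlap either, and 28.5% of all transcripts had both mTOR-inactive libraries above both growing ones. The log2 change was 0.11 (95% interval 0.04 to 0.18, limma adjusted p = 0.062). In the 11184 transcripts of at least 5 RPKM, the same values gave an adjusted p of 0.0446 with limma, which passed the test, as did 5% of those transcripts in that direction.

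CAD was at 27.0 and 26.3 RPKM in growing cells and at 27.9 and 28.3 RPKM in mTOR-inactive cells. Both mTOR-inactive libraries lay above both growing ones, as in 28.5% of all transcripts tested. The log2 change of 0.07 (95% interval 0.01 to 0.14) did not pass the test (limma adjusted p = 0.149). The other pyrimidine enzyme, DHODH, had 6.56 and 5.99 RPKM against 6.43 and 6.00 RPKM. Here the libraries of a condition differed more than the conditions, and the log2 change was −0.01 (95% interval −0.14 to 0.11, limma adjusted p = 0.912). The 3 pyrimidine enzymes therefore gave log2 changes of different sign, from −0.14 to 0.07.

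**Figure D2:**
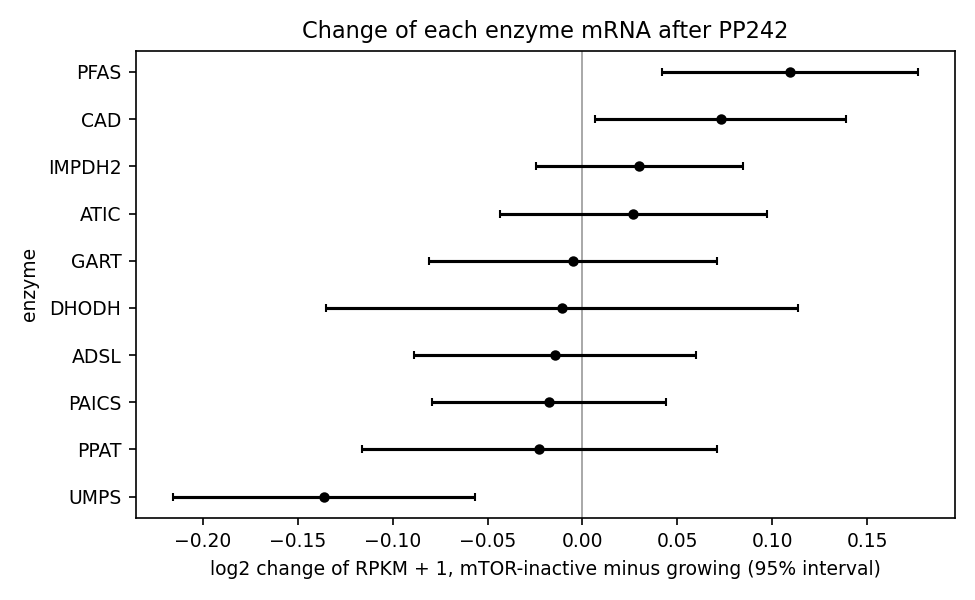
Log2 change of RPKM + 1 (mTOR-inactive minus growing) for the most abundant transcript of each enzyme, with the 95% interval from limma over 2 libraries per condition. UMPS lies lowest at −0.14 and PFAS highest at 0.11, and the intervals of 7 of the 10 enzymes span 0.

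Among the remaining purine enzymes, IMPDH2 had both mTOR-inactive libraries (219.3 and 214.3 RPKM) above both growing libraries (213.6 and 211.1 RPKM), by 0.03 on the log2 scale (95% interval −0.02 to 0.08, limma adjusted p = 0.428). Libraries were apart in this direction in 28.5% of all transcripts tested. ATIC was at 93.7 and 89.3 RPKM in growing cells and at 93.2 and 93.1 RPKM in mTOR-inactive cells, so that the mTOR-inactive values lay within the growing range. PPAT was likewise within the growing range of 32.2 and 34.5 RPKM, at 32.5 and 33.1 RPKM. For the committed enzyme of the pathway the log2 change was −0.02 (95% interval −0.12 to 0.07).

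The most abundant ADSL transcript had 62.6 and 59.5 RPKM in growing cells and 60.5 and 60.3 RPKM in mTOR-inactive cells, and its other isoform 52.7 and 50.1 against 51.3 and 51.2 RPKM. PAICS had 64.6 and 65.0 RPKM against 63.1 and 65.0 RPKM, and its 3 isoforms gave nearly equal log2 changes, all −0.02. GART had 19.5 and 18.8 RPKM against 19.4 and 18.8 RPKM in its most abundant transcript. In the most abundant transcript of each of these 3 enzymes the conditions overlapped and the log2 change lay between −0.02 and −0.01, with adjusted p between 0.69 and 0.933 (limma). The other 3 GART transcripts had log2 changes of 0.02 to 0.03. In 1 of them, NM_000819.4, both mTOR-inactive libraries lay above both growing ones, as in 28.5% of all transcripts tested. PPAT and PAICS, the divergent neighbors, both had log2 changes of −0.02, and both 95% intervals spanned 0 (−0.12 to 0.07 and −0.08 to 0.04). Over the 7 purine enzymes the median log2 change was −0.01, with PFAS as the only value above 0.03.

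LARP1 binding was read from the authors’ lists of PAR-CLIP sites, with their positions in RefSeq transcripts and their reads relative to all mapped reads (RPM). No site was listed on any of the 10 enzymes in either condition, whatever its RPM, among 3948 entries of the growing and 3947 of the mTOR-inactive library. An entry is a site on a single RefSeq transcript, so a site shared by several transcripts is listed more than once. The summed RPM of the enzymes was accordingly 0, against totals of 572790 and 568210 over all entries, in which such shared sites count repeatedly. A gene without a listed site had no read cluster that met the criteria of the authors, and since the lists hold only such clusters, no upper limit on binding can be given. The authors describe an RPM threshold for sites, and whether it was applied to these lists is not stated.

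The count has to be read against how few genes had a site. Of the 7432 genes with a summed level between those of DHODH and IMPDH2, 9.62% had a listed site under growing and 10.7% under mTOR-inactive conditions. For sites of at least 1 RPM these shares were 1.66% and 3.67%. With 10 genes and shares this low, 0 enzymes with a site lies near the background. There was 1 library per condition, so neither share has a replicate check.

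**Figure D3:**
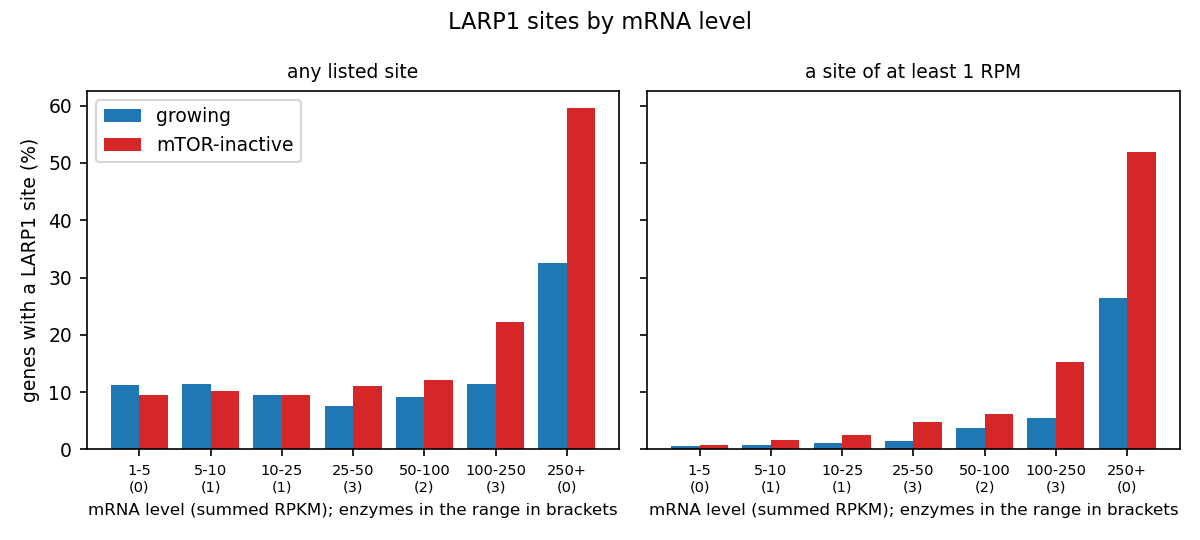
Share of genes with a listed LARP1 site (left, any site; right, a site of at least 1 RPM) in ranges of mRNA level, as RPKM summed per gene, under growing (blue) and mTOR-inactive (red) conditions, with the number of enzymes in each range in brackets. No enzyme reached 250 RPKM, the range with the highest shares, and none of the 10 had a site in the ranges they occupy.

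IMPDH2, PAICS and ADSL fell between 100 and 250 RPKM, where 11.3% of 379 genes had a site under growing and 22.2% under mTOR-inactive conditions. ATIC and GART fell between 50 and 100 RPKM, where the shares were 9.23% and 12.1%. Above 250 RPKM, where 181 genes but no enzyme lay, they were 32.6% and 59.7%. IMPDH2 had no site at 215 RPKM.

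Other genes of nucleotide metabolism were taken from a list of 54 that supply ribose phosphate or folate units, branch from or salvage nucleotides, or phosphorylate and reduce them. Of these, 49 passed the filter on RPKM, each represented by its most abundant transcript. After PP242, 0 were called higher and 2 lower, RRM2 and PNP, against the background of 3.48% and 6.45%. The median log2 change of the 49 was −0.02, with 20 above and 29 below 0.

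RRM2, the small subunit of ribonucleotide reductase, was at 31.2 and 31.4 RPKM in growing cells and at 28.2 and 28.3 RPKM in mTOR-inactive cells. It fell by 0.15 on the log2 scale (limma adjusted p = 0.0212). PNP, which splits purine nucleosides for salvage, was at 39.0 and 38.4 RPKM against 34.9 and 33.0 RPKM. It fell by 0.18 on the log2 scale (limma adjusted p = 0.0264). The RRM2 call was lost without any 1 of the 4 libraries (limma adjusted p 0.0702 to 0.0817), and the PNP call without any but mTOR-inactive replicate 1.

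**Figure D4:**
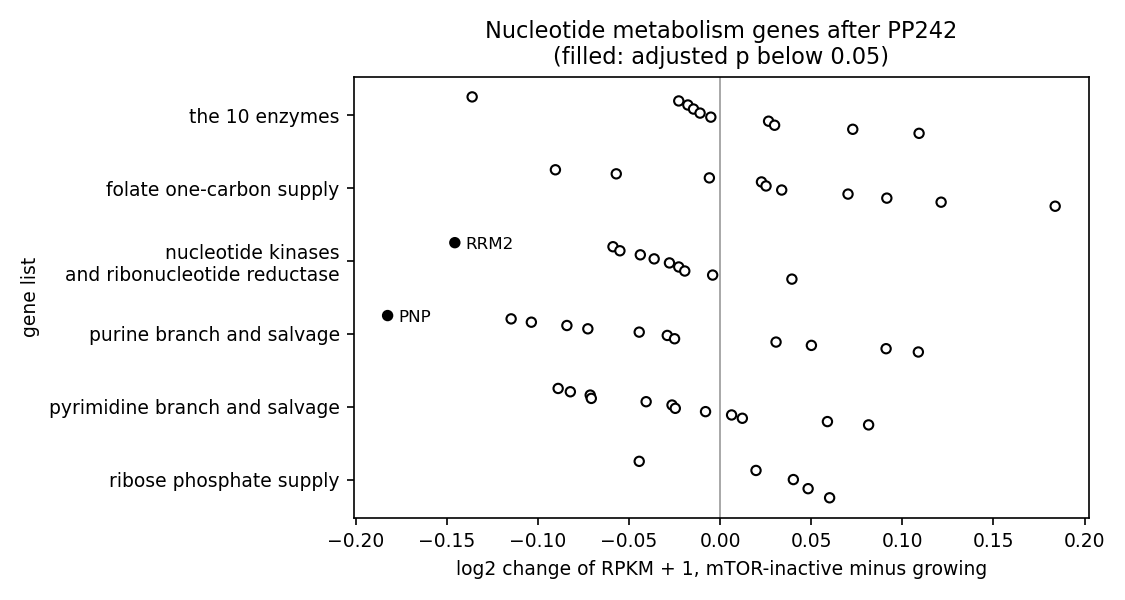
Log2 change of RPKM + 1 (mTOR-inactive minus growing) of the 10 enzymes and of 49 other nucleotide metabolism genes by list, with 1 point per gene by its most abundant transcript. Filled points, RRM2 at −0.15 and PNP at −0.18, passed the adjusted threshold of 0.05, and no open point did.

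IMPDH1, the paralog of IMPDH2, was expressed at 5.63 to 6.19 RPKM in its most abundant transcript, and its log2 change was −0.08 (limma adjusted p = 0.175). GMPS, which makes GMP from the product of IMPDH, had 53.5 and 54.0 RPKM against 52.3 and 51.9 RPKM (log2 change −0.04). ADSS, which starts the branch from IMP to AMP, had 39.5 and 40.9 RPKM against 37.0 and 39.4 RPKM (log2 change −0.07). All of them missed the threshold, with adjusted p for the latter pair of 0.265 and 0.26 (limma).

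CTPS1, which makes CTP from UTP, had 81.3 and 82.1 RPKM in growing cells and 76.98 and 77.29 RPKM in mTOR-inactive cells. Both mTOR-inactive libraries lay below both growing ones, as in 30% of all transcripts tested, and the log2 change of −0.08 missed the threshold (limma adjusted p = 0.0713). Its paralog CTPS2 was far lower, at 3.84 to 4.11 RPKM, with a log2 change of 0.06 (limma adjusted p = 0.314). The PRPP synthetases PRPS1 (69.4 to 73.6 RPKM) and PRPS2 (13.2 to 14.1 RPKM), which supply the activated ribose of both pathways, had log2 changes of −0.04 and 0.06 and did not pass either (limma adjusted p = 0.365 and 0.278).

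Folate genes supply the formyl groups that GART and ATIC use. MTHFD2, a mitochondrial enzyme of this supply and a known target of ATF4, had 44.7 and 45.8 RPKM against 43.2 and 43.6 RPKM, a log2 change of −0.06 that did not pass (limma adjusted p = 0.208). In all, 7 of the 10 folate genes tested had a log2 change above 0 and 3 below, and 0 were called. With RPKM summed per gene, 4 of the 51 other nucleotide genes tested were called, 2 higher and 2 lower. The background in that fit was 4.41% of 12375 genes higher and 9.37% lower, and 2 of 51 higher lies near it. The 2 called higher were folate genes, MTHFD1L (41.2 and 40.0 against 44.03 and 43.5 RPKM, limma adjusted p = 0.0489) and SHMT2 (69.8 and 70.6 against 75.3 and 75.1 RPKM, limma adjusted p = 0.0393).

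Some of these genes had a listed LARP1 site. In PRPS1 a site of 489 RPM was listed in the coding sequence under growing conditions, at bases 419 to 439 of NM_002764.3, and none under mTOR-inactive conditions. The same RPM was listed on PRPS1L1, a close copy, at bases 295 to 315 of NM_175886.2, so the reads cannot be assigned to either gene. In MTHFD2, sites of 701 RPM (bases 1834 to 1855 of NM_006636.3) and 373 RPM (bases 2134 to 2157) were listed in the 3’UTR under mTOR-inactive conditions and none under growing conditions. These are single libraries, and which of the conditions would hold a site in a further library is not known.

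Other sites of at least 0.01 RPM were weak. NME2, a nucleoside diphosphate kinase, had 0.975 RPM in the 3’UTR under mTOR-inactive conditions. AMPD2, an AMP deaminase, had 0.271 RPM and PRPS2 0.0775 RPM in the coding sequence under growing conditions. The values of NME2 and PRPS2 were also listed on at least 1 other gene. Under growing conditions 5 of the 54 genes had a site and under mTOR-inactive conditions 5, against 10.5% and 11.2% of the 11417 genes of at least 1 RPKM. The growing count includes both PRPS1 and PRPS1L1, whose shared RPM cannot be assigned to either. Both counts lie near that background, as does 0 of 10 enzymes, so these counts do not set the lists apart.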

How the data were processed

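For mRNA-seq the authors trimmed linkers, aligned the reads with Bowtie to human transcripts of GRCh37, kept perfect matches, divided reads matching several loci evenly, and deposited RPKM per RefSeq transcript and library. For PAR-CLIP the authors clustered reads, kept clusters with T-to-C conversion, and deposited sites with their RPM. The deposited ratio of site RPM to transcript RPKM and the T-to-C score were not used. The lists hold only called sites.

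The mRNA-seq table holds 39711 lines, and 1273 repeated lines were left out. Where the table names no gene (5989 transcripts), 2860 were matched by accession to a RefSeq table of assembly GRCh38.p14, used for names only. The conditions were compared with lmFit and eBayes (with a trend) of limma 3.58.1, under R 4.3.3, on log2(RPKM + 1), a scale that understates changes of low genes, for transcripts averaging 1 RPKM or more, two-sided, with Benjamini-Hochberg adjustment. A test for counts would not fit RPKM. The step was tested on simulated data. PAR-CLIP had 1 library per condition and no test. Positions and starts were read from GRCh37 with GENCODE 44 (lifted) using pysam 0.24.0 in Python 3.11.15.

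The members and gene lists were chosen with earlier results of these data known. Named genes are the 10 enzymes, the other listed genes that were called or had a site of at least 0.01 RPM, and IMPDH1, CTPS1, CTPS2, PRPS1, PRPS2, GMPS, ADSS and MTHFD2, except for 1 item that is not reported here. MTHFD1L, SHMT2 and the examples RPS6 and EEF1A1 were chosen after values or sequences were seen. The alternatives were a pseudocount of 0.1, other filters (none, 5 RPKM), centred libraries, a replicate block, eBayes without a trend, RPKM summed per gene, leaving out each library, site minimums of 0.01 and 1 RPM, and each RPM value once per gene.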

Additional observations from a re-analysis of the deposited data

How the results depend on the processing

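Across the 11 alternatives for the mRNA fit (10 for UMPS, which 5 RPKM removed), UMPS stayed below 0 (log2 change −0.16 to −0.12) and PFAS, CAD and IMPDH2 above 0, and each of UMPS and PFAS was called under 1 alternative: 1 of 10 enzymes was called with RPKM summed per gene and 1 of 15 transcripts with a minimum of 5 RPKM, against 0 of 16. All genes or transcripts called in those fits were 1705 of 12375 and 1603 of 11184. The number of all transcripts called was 2087, 120 without a filter on RPKM, and 855 to 1094 when a library was left out, where the lone library of a condition is assumed to vary like the others. The other nucleotide genes called were 2, 0 without a filter, and 4 of 51 with summed RPKM. They were 3 of 39 with a minimum of 5 RPKM and 3 of 49 with centred libraries. With 5 RPKM and with centred libraries 1 of them was higher, and with summed RPKM 2 were. RRM2 lost its call without each of the 4 libraries (adjusted p 0.0702 to 0.0817) and without a filter (0.0722). PNP lost it without growing replicate 1, growing replicate 2 and mTOR-inactive replicate 2, and without a filter, with adjusted p up to 0.127. The median log2 change of the enzymes was −0.0097 to 0.0301 over the left-out libraries, and also turned above 0 with centred libraries (0.0039) and summed RPKM (0.0049).

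Values that changed sign were all near 0 and not called. With centred libraries GART gave 0.0069 and DHODH 0.001, and with summed RPKM GART gave 0.019. With a library left out, ADSL ranged from −0.0508 to 0.0217, ATIC from −0.0072 to 0.0604, DHODH from −0.0667 to 0.0448, GART from −0.0275 to 0.0173, PAICS from −0.0388 to 0.0034 and PPAT from −0.0725 to 0.0271. The cause was not tested. Same-numbered libraries did not deviate together (r = 0.04 over transcripts, 2 pairs), and the labels do not say that the numbers mark pairs. With the replicate block 2135 transcripts, 0 enzyme transcripts and 2 other nucleotide genes were called. The alternatives for LARP1 sites could not change a count of 0 enzymes and say nothing of its stability. Depth in reads is unknown, and 2 libraries per condition limit the fit.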
